A study of Drosophila melanogaster with 4 samples.

Results

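The genes described here mark hemocytes, the circulating and tissue-resident blood cells of the fly, together with the 2 type IV collagen genes of the basement membrane. The 8 genes are the phagocytic receptor genes eater, NimC1, Sr-CI and crq, the secreted protein genes Hml and Pxn, and the collagen genes vkg and Cg25C. They were taken by gene symbol from the deposited tables of 14162 genes. Of the 8 symbols 7 were found as written, and NimC1 was found under its older spelling nimC1. All 8 had reads, and all 8 passed the filter of a mean level of at least 1 CPM over the 4 libraries, where CPM is a gene's reads scaled to 1000000 gene reads in its library.

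RNA came from dvpdf neurons of Drosophila melanogaster brains. In the 2 libraries labelled NonA RNAi, nonA was to be lowered in these cells by RNA interference, and the other 2 libraries are labelled control. The labels state that mRNA was extracted and amplified. The sources used here do not give the driver and hairpin lines, the genotype of the controls, the age, sex and time of collection of the flies, or the way cells were collected. They also do not say whether replicates are separate animals, so a p-value covers the spread of these libraries alone, which may be technical.

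Most hemocytes of the fly are plasmatocytes, macrophage-like cells that take up bacteria and dying cells through receptors of the Nimrod, scavenger and CD36 families. They also secrete clotting factors and much of the basement membrane. The GATA factor Serpent is the early regulator of the lineage. The fat body also makes type IV collagen, and glia share the engulfment receptor gene drpr with hemocytes.

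Gene reads numbered between 8558125 and 9673275 in the NonA RNAi libraries and between 8419248 and 9832771 in the controls. In CPM, 3 reads, taken as the floor for a count of 0, correspond to 0.310 and 0.351 CPM in the NonA RNAi libraries, replicate 1 first, and to 0.356 and 0.305 CPM in the controls. Amplified reads are not independent molecules, so floors and exact (Clopper-Pearson) 95% binomial intervals cover counting error only. The neuronal gene elav had 173 and 256 CPM in NonA RNAi libraries, against 210 and 163 CPM in the controls, so neuronal RNA was read in every library. As a pan-neuronal gene elav does not tell dvpdf neurons from other neurons. The targeted gene nonA was at 168 and 283 CPM in NonA RNAi libraries and at 256 and 241 CPM in the controls. NonA RNAi replicate 2 held the highest nonA level of the 4, and its label was not borne out by that gene. The libraries are therefore named by their labels throughout.

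Hemocyte genes were read at clear levels in 3 of the 4 libraries. In NonA RNAi replicate 1 the pattern broke up: Hml, Sr-CI, NimC1 and eater had 0 reads, the collagen genes were near 0, and Pxn was higher than in any other library. The summed level of the 8 genes was 1112 and 863 CPM in NonA RNAi replicates 1 and 2 and 2133 and 883 CPM in control replicates 1 and 2. As a share of gene reads this was 0.111% (95% interval 0.109% to 0.113%) and 0.0863% (0.0844% to 0.0883%) in the NonA RNAi libraries, against 0.213% (0.210% to 0.216%) and 0.0883% (0.0865% to 0.0902%) in the controls. The sum hides the difference in make-up, because 85.9% of the member reads of NonA RNAi replicate 1 were Pxn reads. In bulk libraries such as these, fewer cells of a type and less RNA per cell cannot be told apart.

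**Figure D1:**
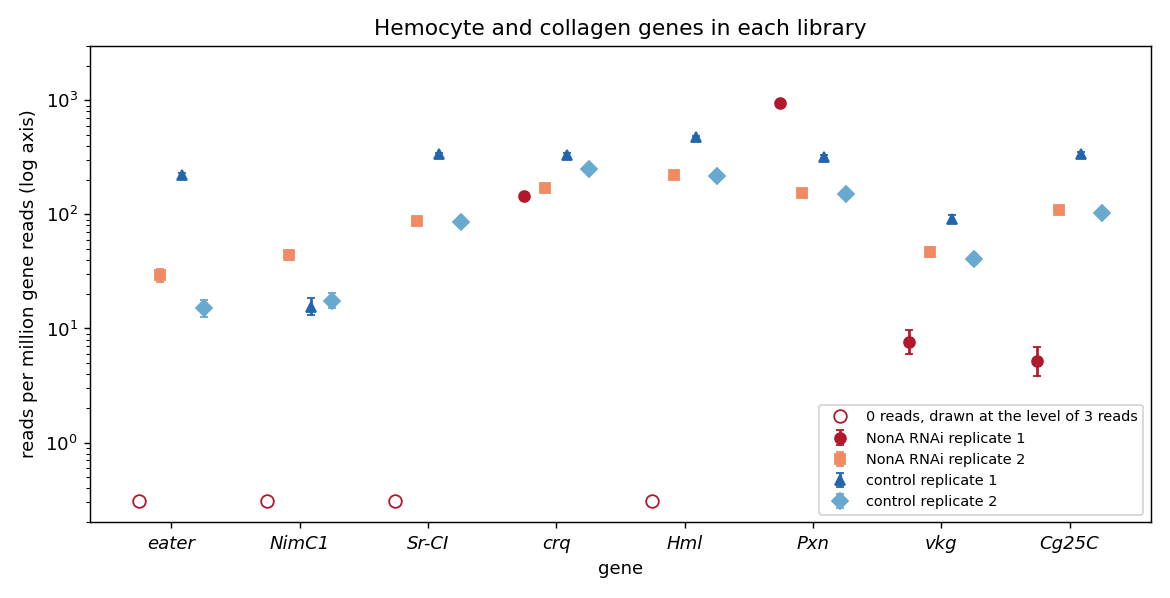
Level of each of the 8 genes (CPM, log axis) in the 2 NonA RNAi and the 2 control libraries; bars are exact 95% binomial intervals of counting error, and open circles are counts of 0 in NonA RNAi replicate 1 drawn at the floor of 3 reads. NonA RNAi replicate 2 lies close to control replicate 2 for most genes, while NonA RNAi replicate 1 has 4 genes at 0 and Pxn at 955 CPM.

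Of the receptors, eater encodes a Nimrod-family receptor for bacteria that is made by plasmatocytes. It had 0 and 250 reads in NonA RNAi replicates 1 and 2, against 1872 and 148 reads in control replicates 1 and 2. In CPM this was 0 and 29.2 in the NonA RNAi libraries and 222 and 15.1 in the controls. The controls thus differed more from each other than NonA RNAi replicate 2 differed from control replicate 2, and the groups overlapped.

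NimC1, the Nimrod receptor recognised by the plasmatocyte antibody P1, had 0 and 375 reads in the NonA RNAi libraries, against 131 and 172 reads in the controls. These came to 0 and 43.8 CPM in NonA RNAi libraries and 15.6 and 17.5 CPM in the controls. NonA RNAi replicate 2 was therefore the highest library for this receptor and NonA RNAi replicate 1 the lowest. The controls were alike here, which was not so for eater.

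Sr-CI, a class C scavenger receptor of phagocytes, had 0 and 756 reads in the NonA RNAi libraries, against 2823 and 842 reads in the controls. Its levels were 0 and 88.3 CPM in NonA RNAi libraries and 335 and 85.6 CPM in the controls. NonA RNAi replicate 2 and control replicate 2 lay within counting error of each other, with intervals of 82.2 to 94.9 CPM and 79.9 to 91.6 CPM.

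crq encodes croquemort, a CD36-family receptor for dying cells. It had 1397 and 1463 reads in the NonA RNAi libraries, against 2776 and 2469 reads in the controls, or 144 and 171 CPM in NonA RNAi libraries and 330 and 251 CPM in the controls. Of the 8 genes it was the 1 whose groups did not overlap. Both NonA RNAi libraries were lower than both controls for 17.5% of all 9404 genes tested, so 1 of 8 is no more than that background. The log2 fold of crq was -0.88 with a standard error of 0.45, and its adjusted p was 0.919 by the quasi-likelihood test of edgeR, with Benjamini-Hochberg adjustment over all genes tested. In the Release 6 annotation an exon of crq overlaps one of ex, and strand was not stated to be used in counting. The deposited counts hold a separate entry named ambiguous, so reads of the overlap may have been left out of both genes. How such reads were counted is not stated. ex was at 54.9 and 79.6 CPM in NonA RNAi libraries and 81.0 and 56.6 CPM in the controls, and did not follow crq.

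Of the secreted proteins, Hml encodes hemolectin, a large clotting protein and the usual marker of differentiated plasmatocytes. It had 0 and 1885 reads in the NonA RNAi libraries, against 4012 and 2152 reads in the controls, or 0 and 220 CPM in NonA RNAi libraries and 477 and 219 CPM in the controls. With the floor of 3 reads for NonA RNAi replicate 1, NonA RNAi replicate 2 was at least 710-fold higher than NonA RNAi replicate 1. Hml thus differed between the NonA RNAi libraries by far more than between the controls.

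Pxn encodes peroxidasin, a matrix peroxidase that cross-links type IV collagen. Its pattern differed, with 9237 and 1323 reads in the NonA RNAi libraries, against 2707 and 1485 reads in the controls. Its levels were 955 and 155 CPM in NonA RNAi libraries and 322 and 151 CPM in the controls. NonA RNAi replicate 1 stood above the other 3 libraries and the groups overlapped. Exons of Pxn overlap those of CG16986 in the Release 6 annotation. CG16986 was likewise highest in NonA RNAi replicate 1, at 200 and 52.7 CPM in NonA RNAi libraries and 68.2 and 56.5 CPM in the controls. The entry named ambiguous held 0.317% and 0.224% of all counts in NonA RNAi libraries and 0.219% and 0.302% in the controls. Whether reads of overlapping exons went there is not stated.

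The collagen genes vkg and Cg25C (now Col4a1) encode the type IV collagen chains of fly basement membranes and are neighbours on chromosome arm 2L, transcribed away from each other. vkg had 74 and 400 reads in the NonA RNAi libraries, against 770 and 398 reads in the controls, or 7.65 and 46.7 CPM in NonA RNAi libraries and 91.5 and 40.5 CPM in the controls. Cg25C had 50 and 935 reads in the NonA RNAi libraries, against 2867 and 1020 reads in the controls, or 5.17 and 109 CPM in NonA RNAi libraries and 341 and 104 CPM in the controls. Both genes were lowest in NonA RNAi replicate 1 and highest in control replicate 1, and for both the groups overlapped.

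The make-up of the signal was compared within libraries, where scaling between libraries plays no part. There were 2.49 Hml reads for each Sr-CI read in NonA RNAi replicate 2, against 1.42 and 2.56 in control replicates 1 and 2. The ratio of Pxn to Hml reads was 0.702 in NonA RNAi replicate 2, against 0.675 and 0.69 in the controls. These are close, and in NonA RNAi replicate 1 the ratio had no value because 9237 Pxn reads stood beside 0 Hml reads. The ratio of Cg25C to vkg reads was 0.676 and 2.34 in the NonA RNAi libraries and 3.72 and 2.56 in the controls, so the minor collagen signal of NonA RNAi replicate 1 also had another make-up. Other ratios were not steady in the other 3 libraries: Hml reads per eater read were 7.54 in NonA RNAi replicate 2, against 2.14 and 14.5 in the controls. Hml reads per NimC1 read were 5.03 in NonA RNAi replicate 2, against 30.6 and 12.5 in control replicates 1 and 2. For crq reads per Hml read the values were 0.776, against 0.692 and 1.15.

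**Figure D2:**
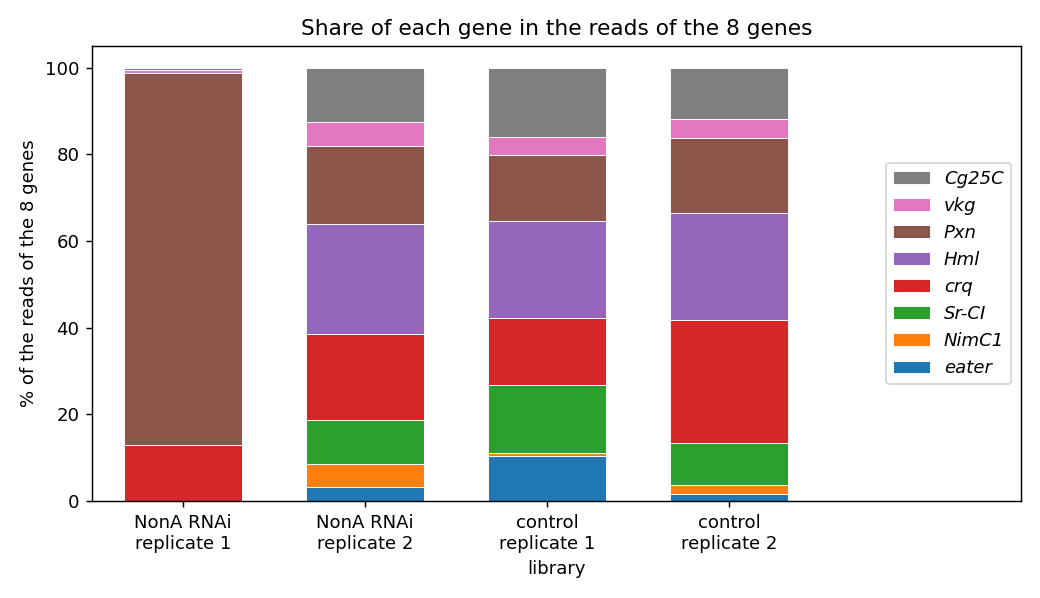
Share (%) of each gene in the summed reads of the 8 genes, with the NonA RNAi libraries on the left and the controls on the right. Pxn takes 85.9% and crq 13.0% in NonA RNAi replicate 1, while in the other 3 libraries no gene exceeds 28.4%.

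Levels of different genes were compared per kilobase of the longest coding sequence. In NonA RNAi replicate 2, crq was highest at 116 CPM per kilobase, followed by Sr-CI at 46.8, Pxn at 33.7, NimC1 at 23.5, Cg25C at 20.5, Hml at 19.1, eater at 9.07 and vkg at 8.03 CPM per kilobase. In the controls crq, Sr-CI and Pxn also took the first 3 places, at 224, 178 and 70.2 CPM per kilobase in control replicate 1 and 170, 45.4 and 33.0 CPM per kilobase in control replicate 2. The lower places changed: eater held place 4 in control replicate 1 and place 8 in control replicate 2, at 69.0 and 4.67 CPM per kilobase. In NonA RNAi replicate 1 the order was Pxn at 208, crq at 98.0, vkg at 1.31 and Cg25C at 0.968 CPM per kilobase, followed by the 4 genes at 0. Hml, high in reads, is low on this scale because its coding sequence of 11529 bases is the longest of the 8.

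Between the groups, none of the 8 genes passed the threshold of an adjusted p under 0.05. The log2 fold, NonA RNAi over control, was negative for 6 genes and positive for 2, with a median of -1.47 beside -0.01 over all 9404 genes tested, of which 50.4% were negative. The adjusted p ranged from 0.919 to 0.997 in edgeR, and 0 of the 8 had an unadjusted p under 0.05. Over all genes edgeR called 0.0% in either direction, 4.86% had an unadjusted p under 0.05, and the smallest adjusted p was 0.1, for esg. DESeq2 called 0 of the 8 genes, against 1.55% of the 9221 genes to which it gave an adjusted p.

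The single values show how wide the uncertainty was. Hml averaged 110 ± 156 CPM in NonA RNAi libraries and 348 ± 182 CPM in the controls (SD, n = 2 each), and its log2 fold of -1.66 had a 95% interval from -6.77 to 3.45. eater averaged 14.6 ± 20.7 CPM in NonA RNAi libraries and 119 ± 147 CPM in the controls (SD, n = 2 each), with a log2 fold of -3.02 and an interval from -8.09 to 2.05. For Sr-CI, Cg25C and vkg the log2 folds were -2.25, -1.96 and -1.28, with standard errors of 2.02, 1.29 and 0.9. Those of Pxn and NimC1 were 1.23 and 0.41, with standard errors of 0.89 and 1.91. All 8 intervals held 0. An exact permutation test of 2 against 2 libraries could not have gone below a two-sided p of 0.333 for any of them.

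**Figure D3:**
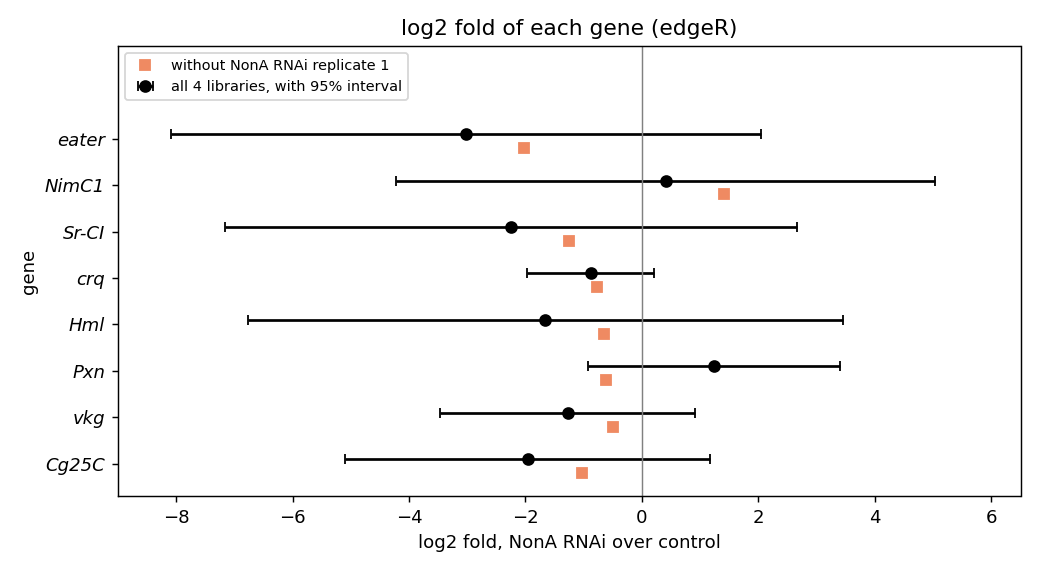
log2 fold of each gene, NonA RNAi over control, from edgeR with all 4 libraries (circles, bars are 95% intervals) and without NonA RNAi replicate 1 (squares). All 8 intervals hold 0, and leaving out NonA RNAi replicate 1 moves Pxn from 1.23 to -0.61 and Hml from -1.66 to -0.66.

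The values depended on which library was left out. Without NonA RNAi replicate 1 the log2 folds were -0.66 for Hml, -1.25 for Sr-CI, -2.02 for eater, 1.41 for NimC1, -0.61 for Pxn, -0.76 for crq, -0.50 for vkg and -1.02 for Cg25C. Without NonA RNAi replicate 2 in its place, the 4 genes at 0 in NonA RNAi replicate 1 were lower than the mean of the controls by at least 1121-fold for Hml, 679-fold for Sr-CI, 383-fold for eater and 53.3-fold for NimC1, with the floor of 3 reads in the 1 remaining library. The log2 folds of the other 4 without NonA RNAi replicate 2 were 2.01 for Pxn, -1.01 for crq, -3.11 for vkg and -5.42 for Cg25C. Of the 8 genes only Pxn moved further without NonA RNAi replicate 1 than without NonA RNAi replicate 2. Without control replicate 1 the log2 fold of eater was -0.04, that of Sr-CI -0.96, that of Hml -0.99, that of vkg -0.57 and that of Cg25C -0.86. 0 of the 8 genes passed with any of the 4 libraries left out.

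How rare such zeros were was counted over all genes, with a minimum of 100 reads chosen after the values had been seen. All 8 genes had at least 100 reads in each of the other 3 libraries, and 4 of the 8 had 0 in NonA RNAi replicate 1. Of all 5950 genes with at least 100 reads in each of the other 3 libraries, 16 had 0 in NonA RNAi replicate 1, which is 0.269%, so the 4 hemocyte genes made up 4 of those 16. The same count gave 0 of 5952 genes for NonA RNAi replicate 2, 3 of 6055 genes for control replicate 1 and 0 of 5847 genes for control replicate 2.

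NonA RNAi replicate 2 and control replicate 2 lay close together for most of the 8 genes. The ratio of their levels was 1.01 for Hml, 1.03 for Sr-CI, 1.02 for Pxn, 1.05 for Cg25C, 1.15 for vkg, 0.681 for crq, 1.94 for eater and 2.5 for NimC1. On the log2(CPM + 1) scale 6 of the 8 genes lay within 1.5-fold, against 62.6% of the 5785 other genes whose mean level lay in the range of the 8. For 8 genes this count is near that background. Between NonA RNAi replicate 2 and control replicate 1 it was 0 of 8, against 61.2% of those other genes. Between NonA RNAi replicate 1 and control replicates 1 and 2 it was 0 of 8 each, against 45.4% and 46.5%. Within the groups it was 1 of 8 between the NonA RNAi libraries and 2 of 8 between the controls, against 47.4% and 59.4%. These 6 pairs of libraries are described without a test.

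The genes with the most similar pattern over the 4 libraries were found by the root mean square distance of centred log2(CPM + 1). For the sum of vkg and Cg25C the closest were regucalcin at 0.187, CG4398 at 0.221, srp at 0.36, CG14629 at 0.366 and Idgf1 at 0.366, and 14 of 9396 genes lay within 0.5. srp encodes the GATA factor Serpent, and had 0 and 140 reads in the NonA RNAi libraries, against 482 and 179 reads in the controls. Like the 4 marker genes it was at 0 in NonA RNAi replicate 1. For the sum of the 6 blood cell genes, to which Pxn adds most in NonA RNAi replicate 1, the closest were form3, Gs1l, CG6937, CG7192 and CG8310, at distances of 0.0354 to 0.0889. That summed pattern was common, since 1818 of 9396 genes lay within 0.5 of it. With 4 libraries such likeness is a description only.

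Other receptors of phagocytes were read next to the 8 genes. Of the 17 further genes listed as phagocytic and scavenger receptors, 16 had reads and 12 were tested. The list includes the NimB genes, among them the secreted NimB5, so it is not of receptors alone. edgeR called 0 of them, DESeq2 called 1, against 1.55% of all genes, and 1 had an unadjusted p under 0.05, against 4.86% of all genes. The log2 fold was negative for 10 of the 12, against 50.4% of all genes tested, with a median of -1.16 beside -0.01. Both NonA RNAi libraries were lower than both controls for 7 of the 12, against 17.5% of all genes tested. These 7 were NimB2, NimB3, NimB4 and NimB5 and the receptor genes drpr, Itgbn and PGRP-LC. The same held for 8 of the 13 photoreceptor genes tested, so such separation was not particular to this list. The engulfment receptor gene drpr, which glia also use, was at 174 and 143 CPM in NonA RNAi libraries and 314 and 241 CPM in the controls. NimB5, a secreted Nimrod protein gene, was at 0 and 24.2 CPM in NonA RNAi libraries and 163 and 39.4 CPM in the controls. pes, a CD36-family gene, was at 29.5 and 50.1 CPM in NonA RNAi libraries and 37.1 and 35.4 CPM in the controls.

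Sr-CIII, the neighbour of Sr-CI, had 0 and 8 reads in the NonA RNAi libraries and 0 in both controls. Sr-CII had 0 reads in all 4 libraries, and Sr-CIV had 25 reads, all in control replicate 2. The scavenger receptor signal of class C was therefore nearly all Sr-CI.

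Of the 10 blood cell lineage genes listed, all had reads and 8 were tested. edgeR called 0 of them, DESeq2 called 0, and 1 had an unadjusted p under 0.05, beside 4.86% of all genes. The median log2 fold was -0.62, and 5 of 8 were negative, beside 50.4% of all genes. Both NonA RNAi libraries were lower than both controls for 2 of the 8, beside 17.5% of all genes tested. The 3 with the most reads have roles outside the blood as well, and all were highest in NonA RNAi replicate 1. Pvr, the PDGF and VEGF receptor gene, was at 218 and 57.7 CPM in NonA RNAi libraries and 137 and 72.1 CPM in the controls. The JAK/STAT receptor gene dome was at 117 and 24.5 CPM in NonA RNAi libraries and 26.8 and 27.7 CPM in the controls, and the kinase gene hop at 60.7 and 30.7 CPM in NonA RNAi libraries and 37.7 and 38.2 CPM in the controls. He, which encodes the hemocyte surface protein hemese and lies beside NimC1, was singled out after its values were seen. It had 0 and 20 reads in the NonA RNAi libraries, against 285 and 11 reads in the controls.

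Genes listed for the specialised blood cells gave no common pattern. PPO1, PPO3 and lz had at most 10 reads each over the 4 libraries, so the list says little about these cells. Of the 10 crystal cell and lamellocyte genes listed, 8 had reads and 6 were tested, 3 with a negative log2 fold and a median of 0.2. edgeR called 0 of them, DESeq2 called 1, beside 1.55% of all genes, and 1 had an unadjusted p under 0.05, beside 4.86%. The integrin gene mys was at 297 and 132 CPM in NonA RNAi libraries and 99.1 and 158 CPM in the controls. The kinase gene msn was at 62.3 and 106 CPM in NonA RNAi libraries and 135 and 104 CPM in the controls, and the filamin gene cher at 24.4 and 24.5 CPM in NonA RNAi libraries and 44.4 and 18.0 CPM in the controls. Both NonA RNAi libraries were above both controls for 1 of the 6 tested genes and lower for 1, where the background was 15.2% and 17.5%. Of the prophenoloxidase genes, PPO2 was at 13.2 and 16.6 CPM in NonA RNAi libraries and 8.91 and 5.80 CPM in the controls. It was the gene above both controls, and its adjusted p was 0.953 in edgeR. PPO1 had 7 and 0 reads in the NonA RNAi libraries and 0 in both controls, and PPO3 had 0 in all 4 libraries. lz, the Runx factor gene of the crystal cell lineage, had 10 reads in all, in control replicate 2. The lamellocyte gene atilla had 0 reads in both NonA RNAi libraries and 14 and 173 reads in the controls. These last 5 genes were singled out after their values were seen.

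Of the 11 clotting and opsonin genes listed, 10 had reads and 10 were tested, 9 with a negative log2 fold and a median of -1.83. edgeR called 0 of them, DESeq2 called 0, and 2 had an unadjusted p under 0.05, against 4.86% of all genes. Both NonA RNAi libraries were lower than both controls for 5 of the 10, against 17.5% of all genes tested. The imaginal disc growth factor gene Idgf2 was at 10.5 and 56.0 CPM in NonA RNAi libraries and 281 and 114 CPM in the controls. Tep4, a thioester protein gene, was at 258 and 8.41 CPM in NonA RNAi libraries and 44.7 and 56.6 CPM in the controls. Idgf3 was at 83.1 and 52.9 CPM in NonA RNAi libraries and 70.0 and 164 CPM in the controls.

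The basement membrane holds laminins, perlecan and other proteins beside collagen. Of the 19 further genes of the membrane and of collagen synthesis, 18 had reads and 18 were tested, 14 with a negative log2 fold and a median of -1.24. edgeR called 0 of them, DESeq2 called 1, against 1.55% of all genes, and 3 had an unadjusted p under 0.05, against 4.86%. Both NonA RNAi libraries were lower than both controls for 8 of the 18 and above both for 1, where the background over all genes tested was 17.5% and 15.2%. Ppn, which encodes the matrix protein papilin, was at 1.76 and 202 CPM in NonA RNAi libraries and 546 and 171 CPM in the controls, the order of libraries also seen for Cg25C. Tango1, whose product loads collagen for export from the endoplasmic reticulum, was at 1272 and 43.6 CPM in NonA RNAi libraries and 69.6 and 73.0 CPM in the controls. Timp, the gene of the metalloproteinase inhibitor, was at 78.7 and 167 CPM in NonA RNAi libraries and 164 and 539 CPM in the controls.

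SPARC, which encodes the collagen-binding glycoprotein made by hemocytes, was at 32.2 and 105 CPM in NonA RNAi libraries and 273 and 115 CPM in the controls. The laminin gene LanB1 was at 13.3 and 9.70 CPM in NonA RNAi libraries and 101 and 50.2 CPM in the controls. Both were chosen after their values were seen. LanB1 had a log2 fold of -2.71 and an adjusted p of 0.827 in edgeR.

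Markers of other cell types moved with the libraries in their own ways, and their part in the levels of the 8 genes was not tested. The 14 fat body genes summed to 553 and 151 CPM in NonA RNAi libraries and 3662 and 260 CPM in the controls. Of these 14, 7 were at 0 in NonA RNAi replicate 1, 6 in NonA RNAi replicate 2, 2 in control replicate 1 and 5 in control replicate 2, among them the storage protein genes Lsp1alpha and Lsp2 in both NonA RNAi libraries. The yolk protein genes Yp3 and Yp2 had 11482 and 5784 reads in control replicate 1 and at most 615 reads in any other library. apolpp, the lipophorin gene, was at 131 and 94.6 CPM in NonA RNAi libraries and 243 and 177 CPM in the controls. The 14 antimicrobial peptide genes, which fat body and hemocytes express, summed to 13.3 and 122 CPM in NonA RNAi libraries and 2380 and 45.0 CPM in the controls. Of these genes Dro, Drs and Mtk had the most reads, with 6016, 4140 and 3128 in control replicate 1. Control replicate 1 thus had the highest sum for the 8 genes, the fat body genes and the antimicrobial peptide genes alike.

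The 12 muscle genes summed to 657 and 4.79 CPM in NonA RNAi libraries and 45.5 and 39.8 CPM in the controls, so NonA RNAi replicate 1, without Hml reads, was the library in which muscle genes were highest. In it the titin-like gene sls was at 230 CPM, bt at 163 CPM and the actin gene Act57B at 114 CPM, and 1 of the 12 was at 0; NonA RNAi replicate 2 had 8 at 0, and control replicates 1 and 2 had 4 and 5. The 11 glial genes summed to 622 and 2113 CPM in NonA RNAi libraries and 1758 and 6188 CPM in the controls, with 0 of them at 0 in any library. Of these, Gs2 was at 114 and 859 CPM in NonA RNAi libraries and 573 and 3932 CPM in the controls, nrv2 at 72.5 and 367 CPM in NonA RNAi libraries and 554 and 1208 CPM in the controls, and Eaat1 at 75.3 and 354 CPM in NonA RNAi libraries and 247 and 205 CPM in the controls. The 13 photoreceptor genes summed to 157 and 295 CPM in NonA RNAi libraries and 400 and 562 CPM in the controls, and 6 of them were at 0 in NonA RNAi replicate 1. The most read of them, norpA, ninaE and Arr2, were at 71.7, 50.6 and 5.27 CPM in NonA RNAi replicate 1 and at 182, 35.5 and 8.76 CPM in NonA RNAi replicate 2. The same genes were at 143, 141 and 18.9 CPM in control replicate 1 and at 171, 53.7 and 150 CPM in control replicate 2.

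The 11 pan-neuronal genes, led by nrv3, Appl and Syt1, summed to 5783 and 9366 CPM in NonA RNAi libraries and 9376 and 7152 CPM in the controls and were read in every library. The 8 clock neuron genes, led by Pdf, Pdp1 and tim, summed to 25611 and 92588 CPM in NonA RNAi libraries and 10241 and 4944 CPM in the controls. Most of that was Pdf, at 18436 and 86575 CPM in NonA RNAi libraries and 4979 and 2159 CPM in the controls. The library with the most Pdf and that with the least had Hml at 220 and 219 CPM. NonA RNAi replicate 1 and control replicate 1, with Pdf at 18436 and 4979 CPM, had Hml at 0 and 477 CPM. A relation between Pdf and Hml was not tested. In the comparison between the groups edgeR called 0 genes on any of the 7 lists of fat body, peptide, muscle, glial, photoreceptor and neuronal genes. The median log2 folds of their tested genes were -4.61 for fat body, -3.15 for antimicrobial peptide, 4.10 for muscle, -0.92 for glial, -2.20 for photoreceptor, -0.02 for pan-neuronal and 0.72 for clock neuron genes. The number of these genes with an unadjusted p under 0.05 was 4, 3, 2, 0, 3, 0 and 1, and DESeq2 called 3, 1, 1, 0, 2, 0 and 1, both in the same order. Over all genes these shares were 4.86% and 1.55%, and the numbers tested were 11, 13, 10, 11, 13, 11 and 8. In the same order, both NonA RNAi libraries were lower than both controls for 4, 2, 1, 1, 8, 0 and 0 genes, against 17.5% of all genes tested. They were above both controls for 0, 0, 1, 1, 0, 1 and 6 genes, against 15.2%. Separation of the groups was thus not particular to lists related to hemocytes.

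**Figure D4:**
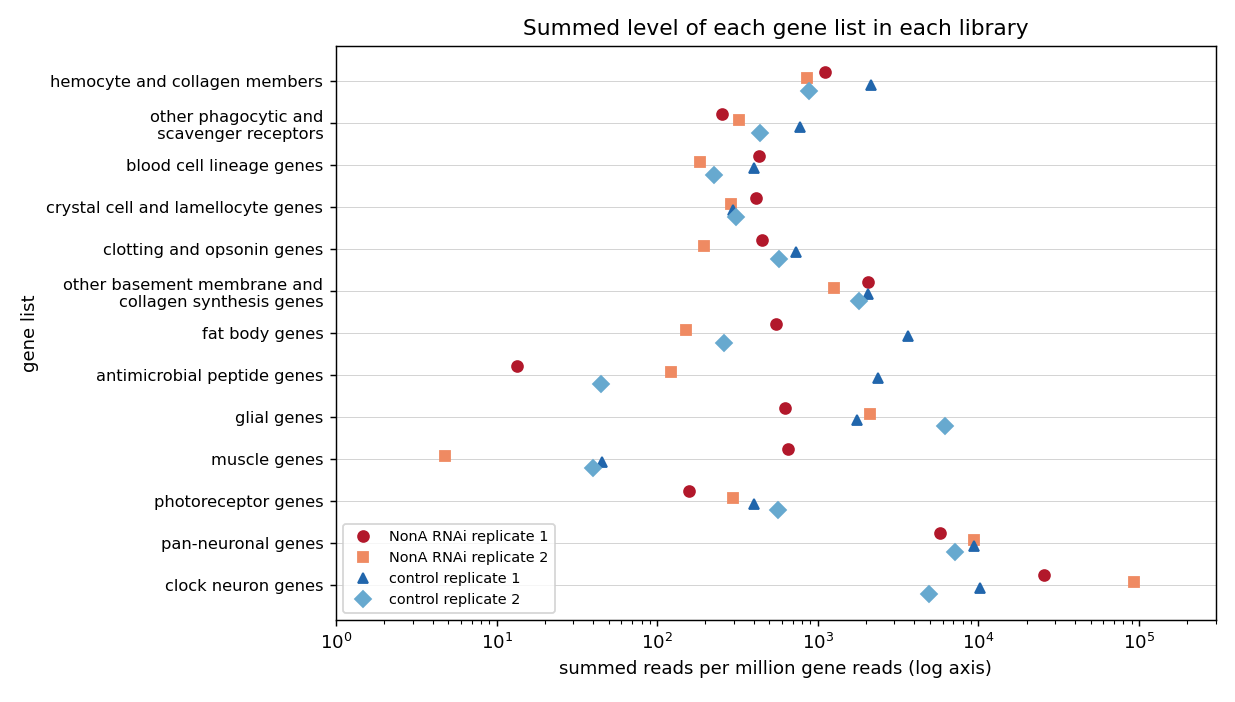
Summed level of each gene list (CPM, log axis) in the NonA RNAi and control libraries. Control replicate 1 is highest for hemocyte, fat body and antimicrobial peptide genes, NonA RNAi replicate 1 is highest for muscle genes at 657 CPM, and pan-neuronal genes lie between 5783 and 9376 CPM.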

How the data were processed

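The authors deposited 1 table per library with the raw read count, the listed length and the RPKM of each gene, per the file headers. Build dm3, TopHat2 2.1.1 and Cufflinks are named in the submitters' processing notes. The sources used here do not name the counting program or the annotation, or say whether strand was used. The RPKM as deposited by the authors uses a listed length close to the whole gene span for most of the 8 genes, so it was used only for alternatives. The 4 entries without a gene name, left out here, held 78.0% and 83.5% of all counts in NonA RNAi replicates 1 and 2 and 84.1% and 83.7% in control replicates 1 and 2. Most of this was the entry for alignments that were not unique. It held 45.2% and 53.7% in the NonA RNAi libraries and 53.9% and 55.6% in the controls, so NonA RNAi replicate 1 had the lowest share.

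Counts were scaled to the sum of gene reads and filtered at a mean of 1 CPM, and the test was the two-sided quasi-likelihood test of edgeR 4.0.16 under R 4.3.3, with Benjamini-Hochberg adjustment over 9404 genes and a threshold of 0.05. A standard error is the size of the log2 fold over the square root of F. The common dispersion was 0.544. Alternatives were TMM and median-of-ratios scaling, 3 other filters, DESeq2 1.42.0, limma 3.58.1 on log2 of RPKM plus 1, the replicate number as a block and each library left out. Coding lengths and overlaps come from the Ensembl annotation of Release 6, used for lengths, names and neighbours only. A protein-length scale had been planned, but the coding length was used. Of 158 list genes all were found, 30 by a synonym in RefSeq.

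The 8 genes and the lists were chosen with earlier results of these data known. From each list the 3 genes with the most reads are named, besides nonA, Pdf and the genes most like the 8 in pattern; others are named where stated or where they overlap or neighbour a member. elav was added as a check for neuronal RNA.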

Additional observations from a re-analysis of the deposited data

How the results depend on the processing

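None of the 8 genes passed the threshold under any of the 12 alternatives. Over all genes the count was 0 in the main test, 79 without a filter, 143 with DESeq2, between 0 and 22 when a library was left out (22 without control replicate 2), and 0 otherwise. Of 96 values of the log2 fold, 92 kept their direction and 4 reversed. The 3 other filters refit the same counts of the 8 genes, with Hml at -1.66 in each, so a kept direction there says little. NimC1 reversed to -0.30 with limma on the deposited RPKM and to -10.27 without NonA RNAi replicate 2, where its NonA RNAi reads were 0 and the fitted value depends on the prior count. Pxn reversed to -0.61 without NonA RNAi replicate 1. Over the libraries left out, NimC1 ranged up to 1.41 and Pxn up to 2.01, crq ranged from -1.06 to -0.67, vkg from -3.11 to -0.50 and Cg25C from -5.42 to -0.86. Other scaling moved the median log2 fold of all genes by 0.04 at most. With 2 libraries a group, the narrowest 95% interval of a log2 fold among the 8 genes was that of crq, from -1.97 to 0.2, and the interval of eater ran from -8.09 to 2.05.

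The replicate numbers were tried as a block. Nothing in the labels says that a number marks a shared animal or day, and the deviations of same-numbered libraries from their group means had a correlation of -0.01 over 9404 genes. With the replicate block 0 genes passed and NimC1 reversed to -2.40; the other 7 members kept their direction, with Hml at -5.00, Sr-CI at -4.72, eater at -4.07, Cg25C at -2.93, vkg at -1.67, crq at -0.87 and Pxn at 0.80.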

Other observations

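The 12 other genes with 0 reads in NonA RNAi replicate 1 and at least 100 reads in each other library were Obp18a, CG4950, Karl, NimB5, CG10131, CG8965, G-ialpha65A, CG33494, CG34331, CG42711, srp and CG7966. They were chosen after their values were seen, and 2 of them stood on lists used here. NimB5 was on that of phagocytic and scavenger receptors and srp on that of blood cell lineage genes. Karl, a lipocalin gene, had 0 and 397 reads in the NonA RNAi libraries, against 1317 and 362 reads in the controls. CG4950 had 0 and 905 reads in the NonA RNAi libraries, against 1675 and 643 reads in the controls. The odorant-binding protein gene Obp18a had 0 and 670 reads in the NonA RNAi libraries, against 116 and 98446 reads in the controls, so a count of 0 in that library was not particular to blood cell genes.

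The Nimrod genes differed among themselves. NimC2 had 0 and 233 reads in the NonA RNAi libraries, against 507 and 17 reads in the controls, and NimB1 had 0 and 35 reads in the NonA RNAi libraries, against 266 and 36 reads in the controls. NimB2 was read in all 4 libraries, with 91 and 220 reads in the NonA RNAi libraries and 407 and 281 reads in the controls. NimC4, whose protein glia use to take up dying neurons, had 32 and 0 reads in the NonA RNAi libraries and 0 and 18 reads in the controls. With 50 reads in all, no pattern can be read from it.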
